A study of Mus musculus with 47 samples.

Results

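The genes described here are 8 keratins of the mouse mammary epithelium, *Krt5*, *Krt14*, *Krt15* and *Krt17* of the basal layer and *Krt7*, *Krt8*, *Krt18* and *Krt19* of the luminal layer. They were chosen by name, and all 8 were found among the 17078 genes of the expression table. The study sorted luminal and basal cells from FVB/N mice at 8 time points of the reproductive cycle and sequenced their RNA, and 46 libraries were used, 24 luminal and 22 basal. W10 and M4 mice had never been pregnant and were 10 weeks and 4 months old. P3.5 and P14.5 are days 3.5 and 14.5 of pregnancy, L3 and L10 are days 3 and 10 of lactation, Id2 is day 2 of involution, the regression of the gland after weaning, and Iw4 is week 4 of involution. Each of the 16 conditions had 3 libraries, except basal cells of P14.5 and L10, which had 2. The authors removed the basal library of P14.5 replicate 2 as an outlier. Cells that carried none of the lineage markers (CD11b, CD45, Ly-6G/C, Ter-119, CD31 and CD140a) and were CD24+ were taken as luminal when CD29lo and as basal when CD29hi. A library therefore holds cells pooled from several mice of 1 sort, the gates were held alike as far as possible with small shifts from one sort to the next, and the RNA was amplified before sequencing. The libraries held 4398806 to 20023054 reads on genes (median 8518616), and levels are given as CPM, the count over the effective library size set by the authors. That size does not follow the reads on genes, since the columns sum to between 675541 and 2909040 CPM, and 3 reads, taken as the smallest measurable level, correspond to between 0.170 (P3.5 basal replicate 2) and 1.05 CPM (L3 luminal replicate 6). The labels name no genetic change and no agent for any group.

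Keratins are the intermediate filament proteins of epithelial cells, and a filament needs a type II keratin paired with a type I keratin. In basal and myoepithelial cells of the gland the type II keratin is Krt5, its usual partner is Krt14, and Krt15 and Krt17 are further type I keratins of basal epithelia. In luminal cells the type II keratins are Krt8 and Krt7, and the type I keratins are Krt18, the usual partner of Krt8, and Krt19, a short keratin that lacks most of the tail. The filaments end at desmosomes between cells and, in basal cells, at hemidesmosomes on the basement membrane, and antibodies to these keratins are widely used to tell the cell layers apart.

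The genes lie in the mouse keratin clusters, the type I genes *Krt15*, *Krt19*, *Krt14* and *Krt17* in that order on chromosome 11 and *Krt7*, *Krt5* and *Krt8* on chromosome 15 with *Krt18*, the type I gene beside *Krt8*. No protein-coding gene was annotated between *Krt8* and *Krt18*, nor between *Krt15* and *Krt19*. Exon length per gene ran from 1.44 kb (*Krt18*) to 4.09 kb (*Krt7*), so levels are compared between genes only as CPM per kb. Some exon sequence occurs in a second gene: 29.7% of the 50-base stretches of *Krt8* (most in the pseudogene *Krt8-ps*), 14.4% of *Krt14* (*Krt16*), 12.2% of *Krt5* (*Krt6a*) and 3.99% of *Krt17* (*Krt14*), and the reads of those stretches are uncertain. The 100 bases before the annotated start are shown for the 4 genes with a RefSeq window at that start. Among them, *Krt8* and *Krt18* are neighbours and partners whose ratio changed in basal cells, and *Krt5* and *Krt7* changed with lactation in opposite cell types. The part of these sequences in any change was not tested. RefSeq windows were matched for 5 of the 8 members. Those shown are from RefSeq (GRCm38.p6), on the gene's own strand, with the letters ATAAAA in capitals.
Krt5, chr15:101712906-101713005, minus strand: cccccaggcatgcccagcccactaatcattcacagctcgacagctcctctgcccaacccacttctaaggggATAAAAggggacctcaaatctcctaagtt
Krt7, chr15:101412303-101412402, plus strand: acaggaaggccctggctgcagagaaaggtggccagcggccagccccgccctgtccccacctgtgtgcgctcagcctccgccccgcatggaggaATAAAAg
Krt8, chr15:102004343-102004442, minus strand: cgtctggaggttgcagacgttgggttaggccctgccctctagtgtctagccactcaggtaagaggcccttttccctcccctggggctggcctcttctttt
Krt18, chr15:102028116-102028215, plus strand: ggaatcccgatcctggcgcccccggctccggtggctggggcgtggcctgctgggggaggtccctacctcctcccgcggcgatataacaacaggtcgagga
In *Krt5* the match begins 29 bases before the start and in *Krt7* 7 bases before it. The 250 bases before each start were also searched, on both strands, for TATAAA (the core of a TATA box), for GGGCGG (a GC box) and for TGANTCA (the site of AP-1). *Krt7* held 4 matches to the GC box, whereas the windows of *Krt5*, *Krt8* and *Krt18* held no match to TATAAA, the GC box or the AP-1 site. Those of *Krt8* and *Krt18* also held no ATAAAA. Of 32851 windows of this length, ATAAAA was in 17.0%, TATAAA in 12.4%, the GC box in 32.7% and the AP-1 site in 6.75%. A match is only an occurrence of these letters.

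Several points on the libraries bear on every value. The 3 libraries labelled Id2 basal stood apart, and their markers were split. *Trp63*, which encodes the basal transcription factor p63, was at 9.99, 26.6 and 3.39 CPM in replicates 2, 4 and 6, against 457 to 999, median 606, in the 19 other basal libraries. *Oxtr*, the oxytocin receptor of myoepithelial cells, was at 1.56, 98.2 and 6.30 CPM against 462 to 4323, median 995. *Acta2*, the smooth muscle actin shared by myoepithelial cells and pericytes, was at 537, 8399 and 515 CPM against 4826 to 29688, median 8612. Against the luminal library of the same sort, *Trp63* and *Oxtr* went against the label in replicates 2 and 6, the luminal level being 204 and 498% of the basal one for *Trp63* and 999.8 and 788% for *Oxtr*, while in replicate 4 it was 8.46 and 27.6%. Most of the 9 myoepithelial markers went with the label, 7 of them being called higher in basal than in luminal cells at Id2, and the luminal level of the median marker was 9.16, 1.67 and 12.8% of the basal one in replicates 2, 4 and 6. Their sum was 1630.3, 20621 and 1298 CPM in the basal and 160 to 334 CPM in the luminal libraries of Id2, against 11234 to 82391 in the other basal libraries. In replicate 4 the contractile genes *Myh11* (5346 CPM), *Mylk* (3509), *Tagln* (732) and *Myl9* (2149) stood above their medians in the other basal libraries (3845, 2162, 551 and 994). The contractile gene *Cnn1* (316 CPM against 558 to 6103) and *Snai2* (44.8 against 87.2 to 390), like *Trp63* and *Oxtr*, were below the whole range there, and *Acta2* was just below its median. The summed endothelial markers reached 10731 CPM in replicate 2 (8.31 to 1133 in the other basal libraries), and the summed fibroblast markers reached 72204 CPM in replicate 6 (221 to 11888), so that these 3 libraries also differed from each other. Further, basal replicate 5 of W10, replicate 5 of P14.5 and replicate 3 of Iw4 are called rich in luminal transcripts here. Their median luminal marker stood at 25.2, 36.5 and 27.7% of its level in the luminal library of the same sort, above the other basal libraries. The order holds for this share only, since the summed luminal markers reached 5781 CPM at Id2, against at most 4889 in the 19 other basal libraries. In addition, W10 and Id2 shared an RNA amplification batch, as did L3 with L10 and P3.5 with P14.5, while Iw4 and M4 shared 3 others. By the labels, W10 was on sequencing lane 2, Id2 on 3, P3.5 on 5, P14.5 on 6 and L10 on 8. L3, Iw4 and M4 shared lane 7. Lane and time point therefore cannot be told apart between W10 and Id2, P3.5 and P14.5, or L3 and L10. Basal and luminal libraries of a time point were amplified together, but for lactation against the never-pregnant state, and for most successive time points, batch and group cannot be told apart. Finally, in bulk RNA of sorted cells, fewer cells of a type and less RNA per cell cannot be told apart. L3 and L10 replicates 4 were sorted on 1 date, and so were L3 and L10 replicates 5, so that for these replicates the 2 lactation days are not separate sorting days. The main test treats libraries as independent, and with the sort date as a block, chosen after seeing the data, the calls in lactation against the never-pregnant state remained except that of *Krt15* in basal cells (adjusted p = 0.0116). Nothing in the labels shows which mice went into which sort. The p-values of the main test measure the spread between the libraries of a condition, each from its own sort, and not between single mice.

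*Krt5*, the type II keratin of basal cells, exceeded *Krt14* per kb in each of the 22 basal libraries, by a ratio of 1.13 to 3.49, whereas in luminal libraries the ratio ran from 0.0315 to 1.38. In basal cells its level was 1879, 1469 and 1997 CPM at W10, 2227, 3050.2 and 3092 at P3.5 and 1606 and 779 at P14.5. During lactation it was 3849, 3583 and 1403 CPM at L3 and 3417 and 2264 at L10. It was 4.68, 156 and 6.95 CPM in the libraries labelled Id2 basal, 1447, 1828 and 1666 at Iw4 and 1945, 2067 and 1293 at M4. All 3 Id2 libraries thus lay below the lowest of the other 19, and among those 19 the levels spanned 779 to 3849 CPM with a median of 1945. In luminal cells *Krt5* was 17.9, 13.2 and 9.33 CPM at W10, 9.84, 14.8 and 13.1 at P3.5, 8.58, 9.24 and 4.47 at P14.5, 3.56, 4.12 and 1.63 at Id2, 8.37, 33.1 and 12.1 at Iw4 and 10.7, 19.4 and 9.94 at M4. At L3 it was 198, 507 and 50.1 CPM in luminal replicates 4, 5 and 6, and at L10 it was 71.2, 1143 and 309.7. These 6 lactation libraries all lay above the other 18 luminal libraries, and they differed among themselves more than the libraries of any other luminal time point.

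*Krt14*, the type I partner of Krt5, had a different course in luminal cells. It was 14.9, 7.43 and 8.46 CPM at W10, 35.8, 21.0 and 47.4 at P3.5 and 138, 102 and 109.8 at P14.5. It was then 138, 369 and 59.97 CPM at L3 and 104, 745 and 331 at L10, against 5.73, 8.23 and 9.15 at Id2, 21.8, 43.0 and 37.2 at Iw4 and 17.0, 29.2 and 21.0 at M4. W10, P3.5 and P14.5 did not overlap, each library of the later time point being higher, whereas the lactation libraries spread from 59.97 to 745 CPM. In basal cells *Krt14* lay between 434 and 1770 CPM in all libraries outside Id2, and at 2.65, 49.0 and 3.07 CPM in those labelled Id2.

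*Krt15*, a type I keratin of basal epithelia, varied most among basal time points even outside Id2. It was 196, 72.0 and 113 CPM at W10, 976, 1100.4 and 1480.02 at P3.5 and 283 and 53.0 at P14.5. It was 824, 786 and 482 CPM at L3, 469 and 746 at L10, 169, 127 and 259 at Iw4 and 200.9, 689 and 285 at M4. All P3.5 libraries were above every basal library of the other time points. The means of W10, P14.5 and Iw4 were the lowest outside Id2, and the M4 libraries overlapped those of P14.5 and Iw4 but lay above all those of W10. In the libraries labelled Id2 basal *Krt15* was listed with 0, 12 and 1 reads. *Krt17*, a type I keratin best known from skin appendages and injured epidermis, ranged from 104 to 777 CPM in basal libraries outside Id2 and was 0.312, 21.0 and 1.62 CPM in the 3 labelled Id2. In luminal libraries outside lactation *Krt15* was at most 7.07 CPM and *Krt17* at most 16.04, while at L3 *Krt17* was 34.5, 111 and 18.6 CPM and at L10 30.9, 142 and 54.4. *Krt15* was 24.5, 53.8 and 11.2 CPM at L3 and 5.06, 119 and 51.4 at L10, with 1 L10 library inside the range of the other luminal libraries.

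The luminal keratins were measured in every library of both cell types. *Krt8*, the type II keratin of simple epithelia, ranged from 243 to 1195 CPM over the 24 luminal libraries, and its type I partner *Krt18* from 437 to 2155. *Krt19* ranged from 306 to 2496 CPM and *Krt7*, a type II keratin of glandular and ductal epithelia, from 21.4 to 229. The lowest luminal means were at Id2 for *Krt7* and *Krt8* and at L3 for *Krt18* and *Krt19*. In basal libraries *Krt7* was 13.3, 34.4 and 6.05 CPM at W10, 10.5, 9.10 and 14.8 at M4, 51.7, 63.1 and 43.5 at L3 and 25.5 and 29.4 at L10. The 3 L3 libraries were the highest of all basal libraries. *Krt18* was 155, 337 and 68.3 CPM at W10, 192, 175 and 149 at M4, 73.5, 37.8 and 36.7 at L3 and 54.5 and 47.6 at L10, with 1 L3 library just inside the W10 range and the other lactation libraries below W10 and M4. *Krt19* was 335, 582 and 102 CPM at W10, 193, 226 and 249 at M4, 602, 538 and 295 at L3 and 513 and 403 at L10, so that lactation overlapped W10 but not M4. *Krt8* was 99.6, 203 and 57.1 CPM at W10, 132, 123 and 85.8 at M4, 249, 181 and 72.3 at L3 and 127 and 105 at L10, with overlap throughout.

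**Figure D1:**
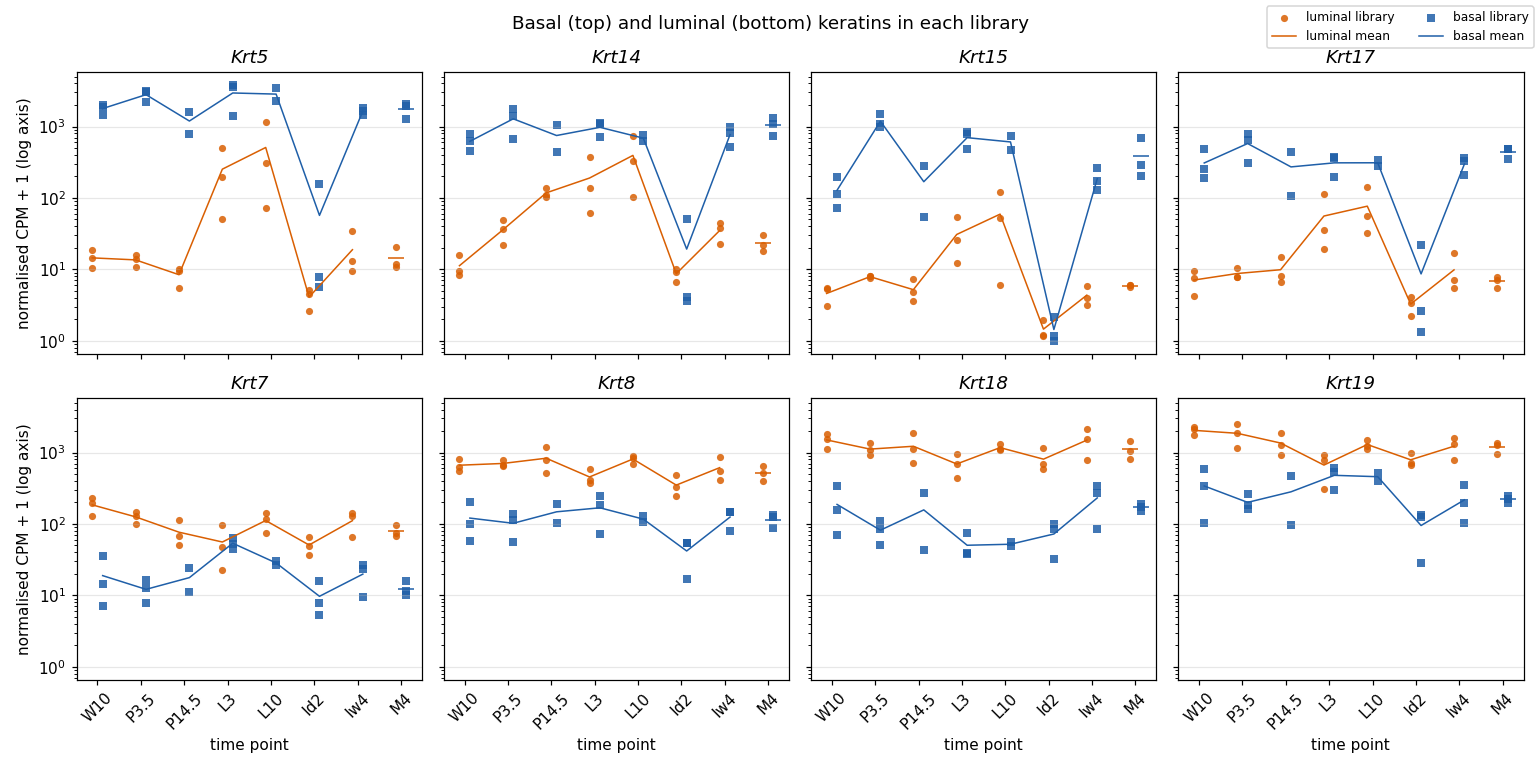
Normalised CPM plus 1, on a log axis, of each keratin in each library (circles luminal, squares basal) at the 8 time points, with lines joining the means from W10 to Iw4 and a bar for the mean at M4. In luminal cells Krt5 is above all its other levels at L3 and L10, where it reaches 1143 CPM, and in basal cells Krt5, Krt14, Krt15 and Krt17 are lowest in the 3 libraries labelled Id2.

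Per length, *Krt5* had the highest mean of the 8 and *Krt14* the second highest in basal cells at each of the 7 time points other than Id2. Their libraries did not overlap at W10, L10 and Iw4, and overlapped at the other 4 time points. The third place changed with time. At P3.5 *Krt15* was the third with 697 ± 154 CPM per kb (SD, n = 3), and its libraries overlapped those of *Krt14* with 754 ± 329.7. *Krt15* was again in the third place at L3 (410.2 ± 110.3), while at W10 it was sixth with 74.8 ± 37.3, behind *Krt19* and *Krt18*, whose libraries overlapped its own, and *Krt17*, whose libraries did not. In luminal cells *Krt19*, *Krt18* and *Krt8* held the first 3 places at every time point, and the libraries of *Krt19* and *Krt18* overlapped at each of them. *Krt7* stood at 44.98 ± 12.7 CPM per kb at W10, above all basal keratins, but at L3 its mean of 13.4 ± 9.26 was the lowest of the 8, overlapping *Krt15*. The 4 basal keratins made up 0.662% of the summed keratin level per kb in luminal cells at W10, 1.599% at P3.5, 3.84% at P14.5, 17.0% at L3 (9.98 to 26.2%) and 18.9% at L10 (5.26 to 35.3%), then 0.642% at Id2. In basal cells they made up between 73.6 and 92.8% as a mean at each time point, and 17.5% in the libraries labelled Id2, where the sum itself was 54.4 to 293 CPM per kb against at least 1297 elsewhere.

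Comparing the cell types at each time point asks how well these keratins separate the sorted populations. The test was limma's moderated test on log2(CPM + 1) over all genes, and calls required a change of 2-fold or more with a Benjamini-Hochberg adjusted p under 0.01. At W10 all 8 keratins were called, 4 higher and 4 lower in basal cells, where 14.2% of all genes were called. The same 8 of 8 were called at P3.5 (background 11.9%), P14.5 (12.9%), Iw4 (11.5%) and M4 (12.4%). At L3 6 were called (25.8%), at L10 5 (24.7%) and at Id2 4 (21.6%). Over the time points together, 16 of these calls, of luminal and of basal keratins, were lost when each time point was fitted on its own libraries only, as given at the end. By direction, the background for calls higher in basal cells was 9.1% at W10, 7.27% at P3.5, 9.54% at P14.5, 15.9% at L3, 13.8% at L10, 12.2% at Id2, 7.79% at Iw4 and 8.2% at M4. For calls lower in basal cells it was 5.12, 4.64, 3.39, 9.87, 10.9, 9.39, 3.75 and 4.24% at the same time points. All basal keratins called were higher and all luminal keratins called were lower in basal cells. *Krt5* was higher in basal cells by 6.97 on the log2 scale at W10 (SE 0.794), 7.68 at P3.5 and 6.98 at M4, but by 3.96 at L3 and 3.24 at L10. The call at L10 was lost without L10 replicate 4 (adjusted p = 0.0530) or 6 (adjusted p = 0.0326) and in edgeR (adjusted p = 0.0288), which called 4 of the 8 at L10. *Krt14* differed by 5.81 at W10, 2.54 at P14.5 (adjusted p = 0.00869), 2.71 at L3 and 1.21 at L10, where it was not called (adjusted p = 0.196). Its call at P14.5 was lost without any 1 of the P14.5 replicates and without the 3 basal libraries rich in luminal transcripts (adjusted p = 0.0120). *Krt17* was also not called at L10, at 2.29 (adjusted p = 0.014, and 0.00932 with the sort, shared by the luminal and basal library of a replicate, as a block).

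Among the luminal keratins, *Krt18* kept its difference, being lower in basal cells by 3.26 on the log2 scale at W10, 3.79 at L3 and 4.49 at L10, and called at each of the 8 time points. *Krt8* was also called at all 8, from -1.58 at L3 to -3.19 at Id2, although the call at L3 was lost without L3 replicate 5 (adjusted p = 0.0270) or 6 (adjusted p = 0.0649). *Krt7* was called at L10 (-1.93), but not without L10 replicate 5 (adjusted p = 0.0864) or 6 (adjusted p = 0.0554). At L3 *Krt7* was not called, and the difference was 0.17 with a 95% interval of -0.81 to 1.15. *Krt19* was not called at L3 (-0.39, 95% interval -1.49 to 0.70, adjusted p = 0.605) or at L10 (-1.50, adjusted p = 0.0497). At L3 *Krt7* in the basal library was 109, 65.6 and 203% of its level in the luminal library of the same sort in replicates 4, 5 and 6, and *Krt19* was 77.4, 58.8 and 96.5%. *Krt18* was 10.6, 4.02 and 8.42% in the same sorts. At L10, replicates 5 and 6, *Krt19* was 41.6 and 35.4% and *Krt18* 4.92 and 3.66%. Without P14.5 replicate 3, which leaves a lone basal library assumed to vary like the others, 1 of the 8 calls at P14.5 remained (*Krt5*).

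**Figure D2:**
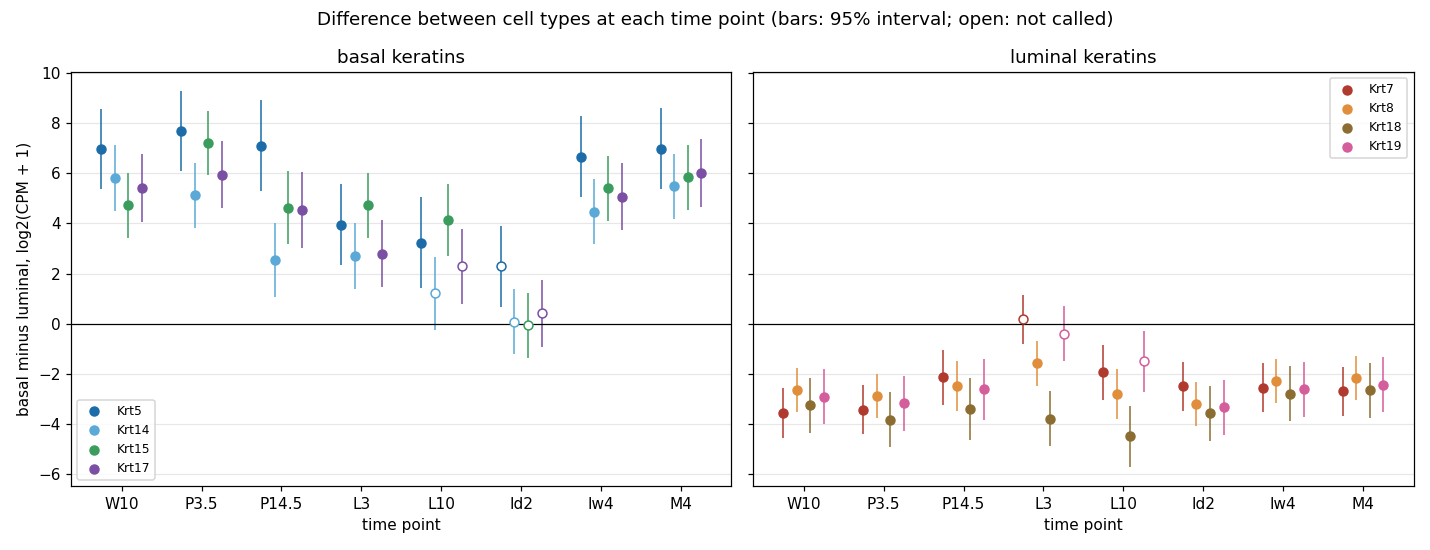
Difference in log2(CPM + 1), basal minus luminal, for each basal keratin (left) and luminal keratin (right) at the 8 time points, with 95% intervals from limma and open symbols where the difference was not called. The basal keratins come closest to 0 at L10 and Id2, and Krt7 and Krt19 come closest at L3, whereas Krt18 stays at or below -2.65 throughout.

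Averaged over the 8 time points, all 8 keratins were called (21% of all genes were, 13.6% as higher and 7.35% as lower in basal cells). *Krt5* was higher in basal cells by 5.61 on the log2 scale (SE 0.289), *Krt15* by 4.58 (0.233), *Krt17* by 4.06 (0.242) and *Krt14* by 3.43 (0.234). *Krt18* was lower by 3.47 (SE 0.197), *Krt8* by 2.50 (0.159), *Krt19* by 2.37 (0.197) and *Krt7* by 2.32 (0.176). Without Id2 the differences of the basal keratins were 6.09, 5.24, 4.58 and 3.90 in the same order of genes, and all 8 were again called (21.1% of genes), as they were without L3 and L10 (19.2%).

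The libraries labelled Id2 basal held little of the basal keratins, while *Krt7* and *Krt18* were not called lower. Set against the basal mean of the 7 remaining time points, 6 of the 8 keratins were lower (17.1% of all genes were called, 7.91% as lower). *Krt15* fell by 7.92 on the log2 scale (SE 0.487, adjusted p = 2.91e-15, limma with Benjamini-Hochberg adjustment), *Krt5* by 6.68 (SE 0.605, adjusted p = 5.50e-11), *Krt14* by 6.49 and *Krt17* by 6.26. *Krt8* fell by 1.69 (adjusted p = 0.000129) and *Krt19* by 1.80 (adjusted p = 0.000786), and both calls were lost without replicate 6. *Krt7* (-1.14, adjusted p = 0.0151) and *Krt18* (-0.64, adjusted p = 0.238) were not called. Against W10 basal cells alone, which were amplified in the same batch but sequenced on another lane, 6 of the 8 were again called (17.4%).

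The 3 libraries were not alike. *Krt5* was 415-, 12.4- and 280-fold below the median of the other basal libraries in replicates 2, 4 and 6, and *Krt14* was 291-, 15.8- and 252-fold below it. *Krt17* was at least 743-fold below in replicate 2, where it had under 3 reads, and 16.6- and 215-fold below in the others. Replicate 4 thus kept the most basal keratin, and it also held 5346 CPM of *Myh11*, the smooth muscle myosin, against 307 and 284 in replicates 2 and 6. *Krt18*, by contrast, was 1.03-, 0.852- and 2.70-fold below its median, and *Krt7* 2.21-, 1.02- and 3.49-fold. *Krt8* was 2.32-, 2.31- and 7.71-fold below its median, under every other basal library each time, and *Krt19* 1.95-, 2.10- and 9.57-fold. Relative to the luminal library of the same sort, *Krt14* was lower in the basal library of replicates 2 and 6, the luminal level being 216 and 298% of it, and higher in replicate 4 (16.8%). Between the cell types at Id2 *Krt5* was not called in limma (2.29, adjusted p = 0.0231, and 0.00919 with the sort as a block), nor were *Krt14* (0.08) and *Krt17* (0.42), and *Krt15* had at most 12 reads in the basal libraries. In this comparison edgeR called 5 keratins, against 4 in limma. Without replicate 4 the differences of *Krt14* and *Krt17* changed sign, to -1.10 and -0.71, and were again not called.

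Markers of other cell types moved with these values. In the same comparison 2922 of all 17078 genes were called, counting both directions. Among the lists, 9 of 9 myoepithelial markers were lower (median log2 change -2.77, against -0.03 for all genes). By contrast, 6 of 7 fibroblast, 7 of 8 endothelial and 5 of 6 pericyte markers were higher. *Pecam1*, an endothelial adhesion molecule, was at 3205, 114 and 81.4 CPM in replicates 2, 4 and 6 (other basal libraries 1.70 to 248, median 36.2). *Col1a1*, a fibroblast collagen, was at 1148, 4359 and 27788 CPM (15.4 to 3507, median 105) and *Rgs5*, a pericyte marker, at 2175, 6932 and 1442 (9.84 to 9895, median 114). By the summed markers replicate 2 stood highest for endothelial cells, replicate 6 for fibroblasts and replicate 4 for pericytes, although the pericyte genes *Kcnj8* and *Abcc9* were highest in replicate 2. The summed luminal markers were 5781, 4910 and 1220 CPM, most of it *Csn3*, a casein, and 2 of these 3 sums lay above the range of the other basal libraries (554 to 4889). Summed pericyte markers were 3058, 10769.8 and 2624 CPM (50.8 to 15512 in the other basal libraries) and immune markers 48.6, 58.1 and 99.7 CPM (2.77 to 86.7). Of the Schwann cell markers 1 of 4, *Sox10*, was lower, and of 3 adipocyte markers 1 was higher and 1 lower. CD31, encoded by *Pecam1*, and CD140a, encoded by *Pdgfra*, were among the markers used to remove cells in the sort. The part of these cell types in the keratin result was not tested. Genes that hold keratin filaments in place moved as follows: 10 of 13 desmosome genes (median -3.20) and 6 of 9 hemidesmosome genes (median -2.56) were lower, and *Vim*, *Des* and *Nes*, which encode intermediate filaments of mesenchymal, muscle and progenitor cells, were higher.

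**Figure D3:**
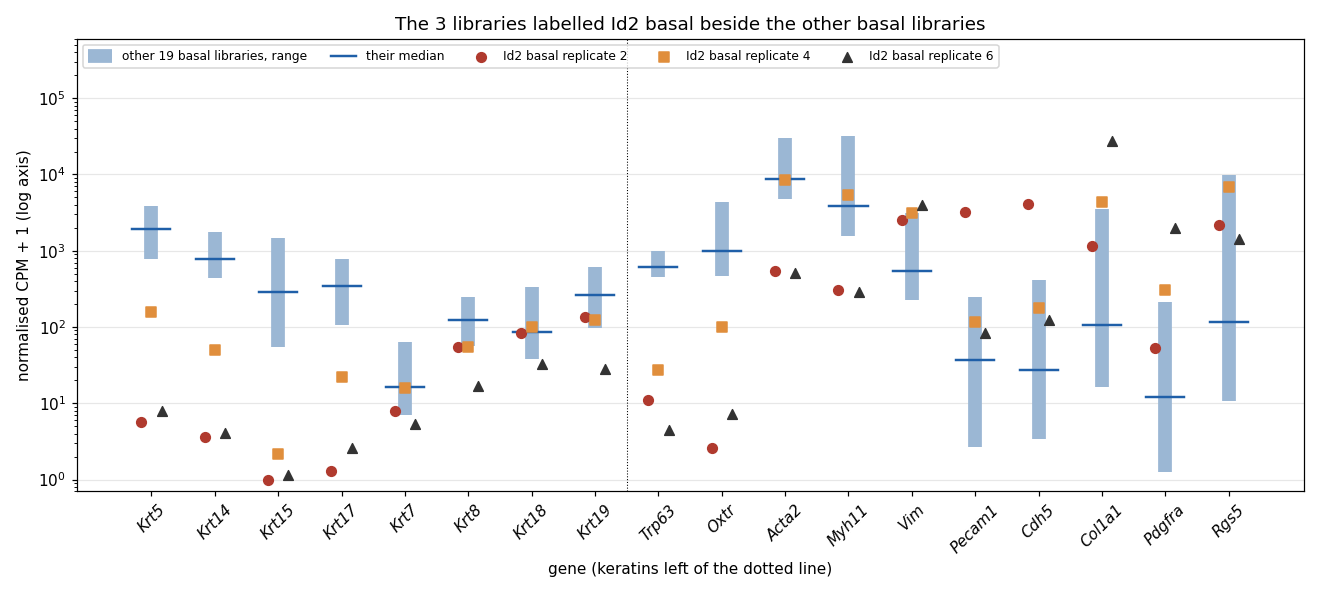
Normalised CPM plus 1, on a log axis, of the 8 keratins and of markers of other cell types in the 3 libraries labelled Id2 basal (symbols) and in the other 19 basal libraries (bar for the range, line for the median). Krt5, Krt14, Krt15, Krt17 and Krt8 lie below the range in each Id2 library, Krt8 only just so in replicates 2 and 4. Krt7, Krt18 and Krt19 lie below it only in replicate 6. Pecam1, Cdh5, Col1a1 or Pdgfra lie above the range in 1 or 2 of the Id2 libraries.

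In luminal cells the basal keratins were higher during lactation than in never-pregnant mice. With the mean of L3 and L10 set against that of W10 and M4, 4 of the 8 keratins were called, all higher, where 13.2% of all genes were called and 7.37% as higher. *Krt5* rose by 4.02 on the log2 scale (SE 0.561, adjusted p = 7.49e-07), *Krt14* by 3.72 (SE 0.455, adjusted p = 6.84e-08), *Krt17* by 2.95 (adjusted p = 6.96e-06) and *Krt15* by 2.51 (adjusted p = 4.16e-05). The luminal keratins were not called, with -0.74 for *Krt7* (adjusted p = 0.0936), 0.06 for *Krt8*, -0.52 for *Krt18* and -0.82 for *Krt19* (adjusted p = 0.0966). The 4 calls remained when both lactation sorts numbered 5, which held the most *Krt5*, were left out. Between P14.5 and L3 *Krt5* rose by 4.41 (adjusted p = 0.000202) and *Krt15* by 2.37 (adjusted p = 0.00965, and 0.0108 with the sort as a block), in a step that called 6.17% of genes. From L10 to Id2 *Krt5*, *Krt14*, *Krt15* and *Krt17* fell by 6.23, 5.11, 4.57 and 4.32 (4.56% of genes called).

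Set against the basal library of the same sort, the keratins and *Trp63* stood at larger shares than the contractile genes of myoepithelial cells. In the L10 sort of replicate 5 the luminal library held 98.5% of the *Krt14*, 41.4% of the *Krt17*, 33.4% of the *Krt5*, 25.3% of the *Krt15* and 35.6% of the *Trp63* of the basal library, but 0.86% of the *Acta2*. In the L3 sort of replicate 5 the shares were 34.6% for *Krt14*, 30.6% for *Krt17*, 14.2% for *Krt5*, 6.85% for *Krt15*, 29.5% for *Trp63* and 0.37% for *Acta2*. These sorts numbered 5, which share a date, had the highest keratin shares of each lactation day. In L10 replicate 6 the shares were 53.7% for *Krt14*, 19.7% for *Krt17*, 13.7% for *Krt5*, 6.89% for *Krt15*, 6.21% for *Trp63* and 0.573% for *Acta2*. In L3 replicates 4 and 6 they were 12.2 and 8.32% for *Krt14*, 9.29 and 9.65% for *Krt17*, 5.14 and 3.57% for *Krt5* and 2.98 and 2.33% for *Krt15*. *Trp63* stood at 8.19 and 3.82% in these 2 sorts and *Acta2* at 0.461 and 1.13%, so the gap between keratins and *Acta2* was narrowest in L3 replicate 6. Outside lactation, P14.5 and Id2 the share of *Krt14* was 1.28 to 5.35% and that of *Krt5* 0.42 to 1.81%. At P14.5 *Krt14* alone of the pair was high, at 9.65 and 25.3% in replicates 3 and 5 beside 0.58 and 0.57% for *Krt5*. Of the myoepithelial list 5 of 9 genes were called higher in lactating luminal cells, among them *Trp63* (2.60) and *Myh11* (2.07), and so were 8 of 8 endothelial, 3 of 6 pericyte, 2 of 7 immune, 1 of 3 adipocyte and 1 of 4 Schwann cell markers, while of 7 fibroblast markers 0 were called higher and 1 lower. *Acta2* was 137, 88.2 and 135 CPM at L3 and 33.0, 152 and 97.3 at L10, against 15.3 to 116 in the other 18 luminal libraries. The summed myoepithelial markers were 529, 521 and 464 CPM at L3 and 217, 722 and 372 at L10, against 113 to 245 at W10 and M4. The summed endothelial markers were 103, 482 and 170.1 and 46.3, 389.7 and 82.4 CPM, led by *Pecam1* or *Cdh5*, against 6.18 to 36.4. The immune markers, led by *Cd3e* in 3 of the libraries, were 18.6, 75.6 and 31.6 and 38.3, 268 and 95.9 CPM against 9.22 to 17.8. Replicate 5 was highest in the endothelial and immune sums at both days, as it was in the basal keratins, but these 2 sorts share a date. The part of these cell types in the keratin levels was not tested.

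**Figure D4:**
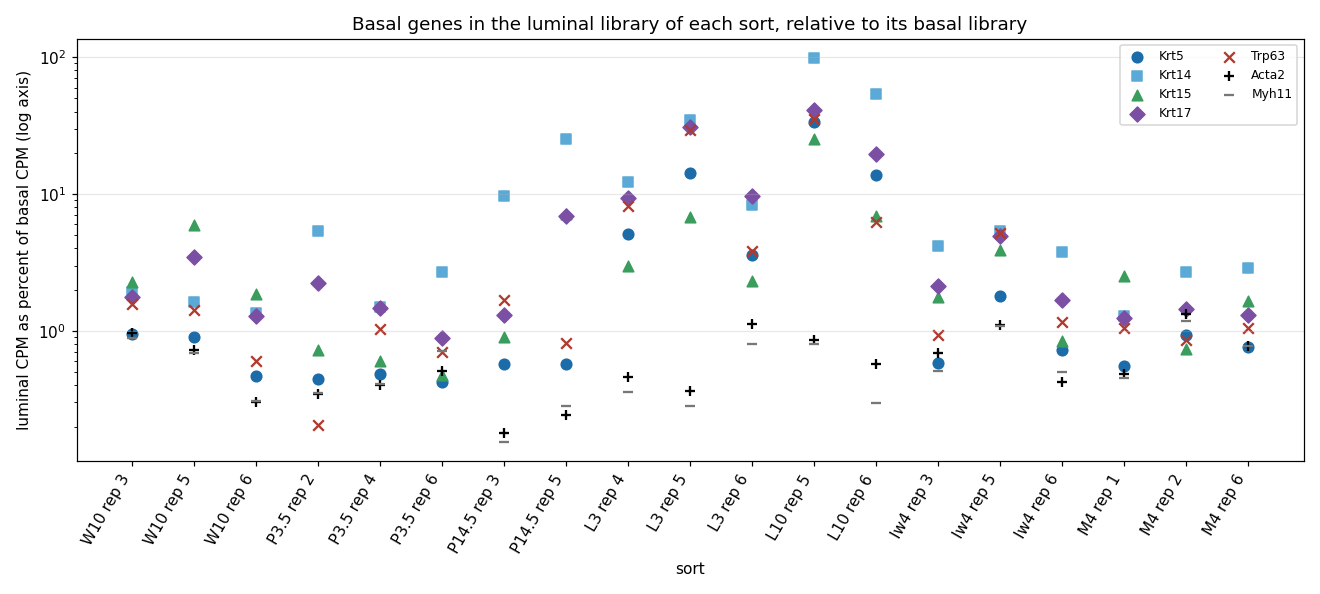
Level in the luminal library as a percentage of that in the basal library of the same sort, on a log axis, for the 4 basal keratins, Trp63, Acta2 and Myh11 in the 19 sorts with both libraries other than Id2. At L3 and L10 the keratins and Trp63 lie above the contractile genes Acta2 and Myh11, and Krt14 reaches 98.5% in L10 replicate 5.

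Other keratins and linker genes rose in the same luminal libraries. Of 23 further keratins 4 were called higher, where 7.37% of all genes were, *Krt79* (4.42), *Krt6a* (3.21), *Krt6b* (1.502) and *Krt16* (1.46), which are keratins of hair follicle, stressed or hyperproliferative epidermis. *Krt6a* was 58.4, 181 and 14.4 CPM at L3 and 26.1, 521 and 168 at L10 in luminal replicates 4, 5 and 6, against 0.253 to 38.4 in the other 18. *Krt79* was 49.6, 145 and 39.98 and 13.0, 227 and 93.8 CPM, against 0 to 12.1. The sorts numbered 5 were the highest for both genes at each lactation day, as they were for *Krt5*, and share a date. *Col17a1*, the transmembrane collagen of hemidesmosomes, rose by 2.65 and was 54.8, 111 and 13.7 CPM at L3 and 20.2, 268 and 69.9 at L10. *Dsg3* and *Dsc3*, desmosomal cadherins of stratified epithelia, rose by 3.76 and 2.68. In all, 3 of 13 desmosome and 3 of 9 hemidesmosome genes were called higher, against the same 7.37% of all genes. *Krt1* and *Krt10*, the keratins of differentiated epidermis, were at 71.5 and 85.7 CPM in luminal L3 replicate 5 and at most at 2.61 and 9.59 CPM in the 18 luminal libraries outside lactation.

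In basal cells *Krt7* was higher and *Krt18* lower during lactation than in never-pregnant mice, while *Krt8* and *Krt19* were not called. Against never-pregnant basal cells 3 of the 8 keratins were called (16.5% of all genes were, 9.58% as higher and 6.97% as lower). *Krt7* rose by 1.51 on the log2 scale (SE 0.363, adjusted p = 0.00123) and *Krt18* fell by 1.71 (SE 0.404, adjusted p = 0.00104). *Krt15* rose by 1.66 (adjusted p = 0.00627), a call lost with the sort as a block (adjusted p = 0.0116) and in edgeR's quasi-likelihood test on the recovered reads (adjusted p = 0.0137). *Krt19* (0.89, adjusted p = 0.0844), *Krt8* (0.27), *Krt5* (0.64), *Krt14* (0.04) and *Krt17* (-0.22) were not called. Without L10 replicate 6, which leaves 1 basal L10 library, only *Krt18* was still called (adjusted p = 0.00881), with *Krt7* at 0.0102 and *Krt15* at 0.0421. Without both sorts numbered 5 *Krt18* was lost (adjusted p = 0.0101), and without the 3 basal libraries rich in luminal transcripts *Krt15* was (adjusted p = 0.0175).

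The ratio of the partners *Krt8* and *Krt18* moved with this. Per kb, it was 2.49, 3.51 and 1.44 in basal replicates 4, 5 and 6 of L3 and 1.71 and 1.62 in replicates 5 and 6 of L10. In the other basal libraries it was at most 1.79 (P14.5 replicate 3, the only one to overlap). The basal means were 0.509 at W10, 0.917 at P3.5, 1.16 at P14.5, 0.412 at Id2, 0.468 at Iw4 and 0.482 at M4. In luminal libraries the ratio stayed between 0.252 and 0.623. The ratio of *Krt19* to *Krt18* per kb was 7.46, 13.0 and 7.32 in basal cells at L3 and 8.58 and 7.72 at L10, above the 2.89 of the highest other basal library. The lactating basal libraries thus held more *Krt8* and *Krt19* for each *Krt18* than any luminal library. Of the 10 luminal markers without keratins, 6 were lower in lactating basal cells (median log2 change -1.43), among them *Kit* (-1.47) and *Cd24a* (-1.20). Pericyte markers were higher (6 of 6, median 4.31), their sum having a mean of 109 CPM at W10 and 168 at M4 against 4214 at L3 and 12097 at L10, with *Rgs5* the most abundant. Also higher were 8 of 8 endothelial markers, whose sum was 712, 739.7 and 1133 CPM at L3 and 1017 and 572 at L10 against 29.2 to 164, and 3 of 7 fibroblast markers. The 3 adipocyte markers in the table were all higher, their sum, led by *Lep*, having a mean of 2.49 CPM at W10 and 2.97 at M4 against 234 at L3 and 337 at L10. Of the myoepithelial markers 5 of 9 were higher, the sum having a mean of 23152 and 14673 CPM at W10 and M4 against 69018 and 64094 at L3 and L10, and so was 1 of 7 immune markers, while 0 of 4 Schwann cell markers were called. The part of all these markers in the keratin values was not tested.

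**Figure D5:**
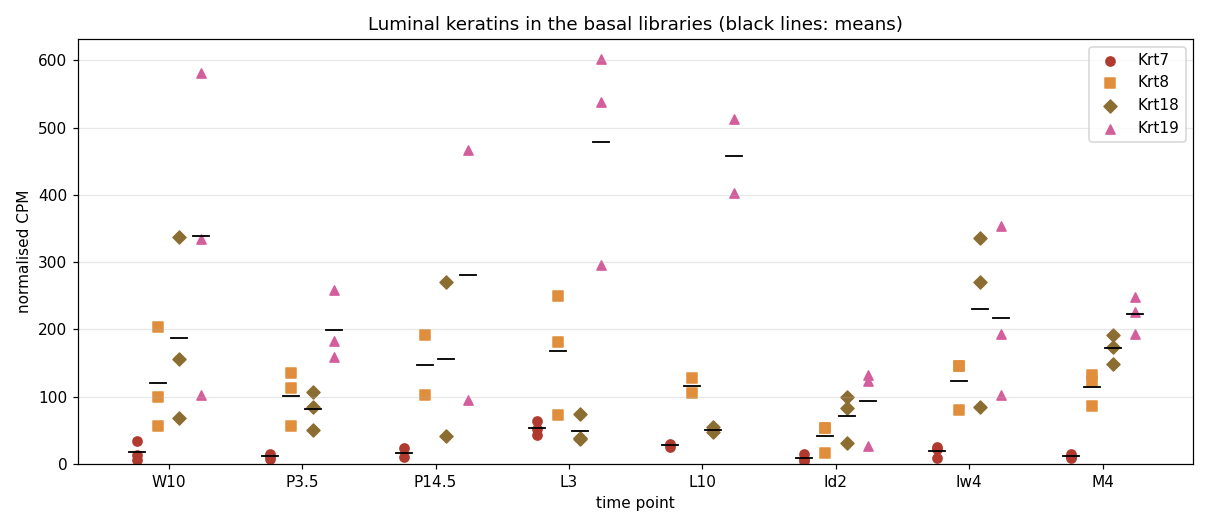
Normalised CPM of Krt7, Krt8, Krt18 and Krt19 in each basal library by time point (symbols), with black lines for the means. At L3 and L10 Krt18 lies between 36.7 and 73.5 CPM, against 68.3 to 337 at W10 and M4, and Krt7 lies between 25.5 and 63.1 CPM, against 6.05 to 34.4, while levels on this scale are not comparable between genes.

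The change with lactation differed between the cell types for 4 of the 8 keratins when the difference itself was tested (10.3% of all genes). Taking the basal change minus the luminal change, it was -3.68 (SE 0.663, adjusted p = 9.06e-05) for *Krt14*, -3.38 (SE 0.818, adjusted p = 0.00277) for *Krt5* and -3.16 (SE 0.685, adjusted p = 0.000885) for *Krt17*. For *Krt7* it was 2.25 (SE 0.498, adjusted p = 0.00113). *Krt19* was not called at 1.72 (adjusted p = 0.0259), but was with the sort as a block (adjusted p = 0.00964). The call of *Krt5* was lost when both lactation sorts numbered 5 were left out (-2.75, adjusted p = 0.0189). For the successive steps the same test called 0 of the 8 from W10 to P3.5 (0.0234% of genes), from P3.5 to P14.5 (0.193%), from P14.5 to L3 (0.703%) and from L3 to L10 (0.386%), with 1, 2, 3 and 1 at an unadjusted p under 0.05 and 0 in edgeR. It called *Krt15* from L10 to Id2 (3.73%) and all 4 basal keratins from Id2 to Iw4 (4.11%), steps that rest on the libraries labelled Id2 basal and in which edgeR called 0 of the 8, and 0 for Iw4 against M4 (0%; 0 at an unadjusted p under 0.05 and 0 in edgeR).

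During pregnancy the basal keratin that moved was *Krt15*. From W10 to P3.5 it was the only member called in basal cells, rising by 3.31 on the log2 scale (95% interval 2.01 to 4.60, adjusted p = 0.000367), where 6.76% of genes were called. From P3.5 to P14.5 it fell by 3.24 (adjusted p = 0.00318, 3.64% of genes called). This second call rested on 2 P14.5 libraries and was lost without the one rich in luminal transcripts (-2.04), which leaves a lone library. The call was also lost in edgeR, with a pseudocount of 0.1 CPM and without any single P3.5 replicate. Of the 23 other keratins, *Krt42*, a further type I keratin, rose in the first step and fell in the second, with *Krt73* and *Krt90*. Their means at P3.5 were 21.4, 4.93 and 9.83 CPM, and *Krt23* also had its highest mean there (76.7 CPM). No marker of another cell type on the lists was called from W10 to P3.5 in basal cells, while from P3.5 to P14.5 6 of 7 fibroblast, 5 of 8 endothelial and 5 of 6 pericyte markers were higher. In luminal cells the difference of *Krt14* was 1.65 from W10 to P3.5 (adjusted p = 0.131) and 1.78 from P3.5 to P14.5 (adjusted p = 0.124), neither of them called, although the libraries did not overlap (1.82 and 1.52% of genes were called). From P14.5 to L3 limma called 0 of the 8 in basal cells (3.89% of genes), with *Krt15* and *Krt7* at an unadjusted p under 0.05 and 0 in edgeR. From L3 to L10 limma called 0 of the 8 in either cell type (0.381% of genes in luminal and 1.14% in basal cells), with 1 at an unadjusted p under 0.05 in luminal and 0 in basal cells, and edgeR called 0.

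From L10 to the libraries labelled Id2 basal, 5 keratins fell (13.3% of genes called), by 8.77 for *Krt15*, 7.18 for *Krt5*, 6.24 for *Krt14*, 6.19 for *Krt17* and 2.56 for *Krt19*. From Id2 to Iw4, 5 rose in basal cells (17.4%), by 7.03 for *Krt15*, 6.41 for *Krt5*, 6.36 for *Krt14*, 6.11 for *Krt17* and 1.71 for *Krt8*. Both steps rest on the 3 libraries labelled Id2 basal, whose markers were split. In luminal cells limma called 0 of the 8 from Id2 to Iw4 (10.5% of genes called), with 5 at an unadjusted p under 0.05 and 0 in edgeR.

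Week 4 of involution was set against never-pregnant mice of matched age to ask whether a past pregnancy left a difference. Of the 8 keratins 0 were called in either cell type by limma or edgeR, and 0 had an unadjusted p under 0.05. Over all genes limma called 0 in luminal cells and 0.00586% in basal cells. The intervals were wide: *Krt15* in basal cells differed by -0.94 on the log2 scale (95% interval -2.23 to 0.35) and *Krt5* in luminal cells by 0.23 (-1.38 to 1.84). Differences within these intervals are therefore not excluded.

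The genes around the keratins also separated the cell types, averaged over the time points, where 13.6% of all genes were called higher and 7.35% lower in basal cells. Of the desmosome list 6 of 13 were higher in basal cells, including *Dsc3*, *Dsg3*, *Pkp1* and *Perp*, and 3 were lower, *Dsg2*, *Pkp2* and *Evpl*. Of the hemidesmosome list 5 of 9 were higher and 0 lower, among them *Col17a1* and *Dst*, which encodes a plakin that links keratin to the hemidesmosome. Of 12 adhesion genes 9 were lower and 1, *Cdh3*, the P-cadherin of basal epithelia, was higher. Of 10 factors that regulate keratin genes or act on keratin filaments, the transcription factor *Trp63* was higher, and the transcription factors *Klf5* and *Ovol1* and the filament-associated *Fam83h* were lower. The median log2 difference of all genes was 0.02, against -3.34 for the 10 luminal markers, all lower, and 6.77 for the 9 myoepithelial markers, all higher. Of the fibroblast markers 7 of 7, of the endothelial 8 of 8 and of the pericyte 5 of 6 were also higher in basal cells.

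Of the other 23 keratins in the table, 8 reached a mean of 10 CPM in some condition. *Krt80* was highest in luminal cells at W10 (mean 63.4 CPM) and *Krt23* and *Krt42* in basal cells at P3.5 (76.7 and 21.4 CPM), the time point at which *Krt15* was also highest. *Krt6a*, *Krt79* and *Krt16* were highest in luminal cells at L10 (239, 111 and 25.7 CPM) and *Krt10* and *Krt1* in luminal cells at L3 (33.8 and 25.3 CPM). Those last means were carried by replicate 5, since *Krt10* was 5.59, 85.7 and 10.2 CPM and *Krt1* 0.180, 71.5 and 4.21 CPM in luminal replicates 4, 5 and 6 of L3, and without that library neither gene reached a mean of 10 CPM in any condition.

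As a description, the genes whose log2(CPM + 1) followed each member most closely were sought among 10580 genes. Over the 46 libraries *Krt5* was most like *Col17a1* (Pearson r = 0.988), *Krt14* and *Krt15* most like *Krt17* (0.963 and 0.961) and *Krt17* most like *Krt5* (0.980). *Krt7* and *Krt8* were most like *Krt19* (0.944 and 0.937), and *Krt18* was most like *Rab11fip1* (0.968), a trafficking protein, with *Cldn7*, a tight junction claudin, close behind (0.957). All libraries share the split between the cell types, which these values include. Within the 24 luminal libraries *Krt5* followed *Krt17* with r = 0.963 and *Krt14* with 0.793, and *Krt8* followed *Krt18* with 0.786. Over the 18 luminal libraries without L3 and L10 the same 3 values were 0.779, 0.247 and 0.814, so the likeness of *Krt5* to *Krt14* rested largely on lactation. In all 24 luminal libraries *Krt19* was most like *Cdh1*, the epithelial cadherin (0.899), and *Krt18* like *Lmna*, a lamin of the nuclear envelope (0.889).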

How the data were processed

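RNA of sorted cells was amplified, sequenced, aligned with GSNAP to mm9, counted per Ensembl gene with HTSeq and normalised with edgeR by the authors, whose deposited signal is the count over the effective library size, as CPM. All 46 columns were used (0 left out). Whole reads were recovered for 100% of values (tolerance 0.01), and floors of 3 reads cover counting error only. Of 17078 genes 16897 were named from a later annotation. limma 3.58.1 in R 4.3.3 was fitted to log2(CPM + 1), which understates the fold change of low genes, with 1 mean for each of 16 conditions and a mean-variance trend, and Benjamini-Hochberg adjustment over all genes. Calls required a fold change of 2 and an adjusted p under 0.01. In data simulated for Id2 against the other basal libraries (17078 genes), 100% of 4-fold and 24 to 32% of 2-fold changes were called. The simulation gave every gene the same spread and changed only genes with a mean of 5 CPM or more. The real Id2 basal libraries differed widely among themselves, so these shares do not measure the power of the real comparison. Alternatives were edgeR 4.0.16 on the reads, the sort or sort date as a block, another pseudocount, filters, and leaving out each sort (both its libraries) or chosen libraries. Luminal and basal libraries of a replicate share a sort date, and so a sort, and 21 of 22 pairs deviated together (median r 0.250). The 8 keratins are named throughout, and other keratins from a mean of 10 CPM, except *Krt6b*, *Krt73* and *Krt90*, named for their changes. Listed genes are named by the largest called change or where a list is short. Like genes are named by the highest r among 10580 genes with a mean of 5 CPM or more. The other genes given by name were chosen after their values were seen. Members and lists were chosen with earlier results of these data known.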

Additional observations from a re-analysis of the deposited data

Results flagged for a closer look

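For several keratins the change between conditions differed between basal and luminal cells when the difference itself was tested in limma. From never-pregnant mice to lactation the basal minus luminal change was -3.38 for *Krt5*, -3.68 for *Krt14* and -3.16 for *Krt17* on the log2 scale, and 2.25 for *Krt7*, and edgeR also called these 4. From L10 to Id2 it was -4.20 for *Krt15*. From Id2 to Iw4 it was 4.38 for *Krt5*, 4.39 for *Krt14*, 5.46 for *Krt15* and 4.65 for *Krt17*. The 5 differences that use Id2 rest on the libraries labelled Id2 basal, whose markers were split, and edgeR called 0 of them. For the lactation differences, amplification batch and group cannot be told apart.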

How the results depend on the processing

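No keratin called in a comparison changed direction under any alternative run, but 8 differences given without a call did. Leaving out 1 sort in turn, its luminal and basal library together, gave -1.10 (without Id2 replicate 4) to 0.78 for *Krt14*, -0.71 (without replicate 4) to 1.46 for *Krt17* and -0.52 to 0.41 for *Krt15* between the cell types at Id2, -0.24 to 0.56 for *Krt7* at L3, -0.31 to 0.62 for *Krt5* in luminal cells between Iw4 and M4, -0.037 to 0.14 for *Krt8* in luminal and -0.078 to 0.14 for *Krt14* in basal lactation. At Id2 *Krt14* was -0.023 with a pseudocount of 0.1 CPM and *Krt15* 0.17 in edgeR, *Krt7* at L3 was -0.15 in edgeR, and *Krt18* in Id2 basal cells was 0.32 against L10 alone. Leaving out both sorts numbered 5 gave -0.078 for *Krt8* in luminal and -0.074 for *Krt14* in basal lactation. The latter was also -0.037 in edgeR, -0.027 with the sort and -0.045 with the sort date as a block, and -0.060 without the 3 basal libraries rich in luminal transcripts. Over 64 comparisons of a keratin between the cell types at a time point, the luminal keratins were lower in basal cells in 29, and in 18 when only the libraries of that time point were fitted. Calls of basal keratins were also lost in that fit, which lost 16 calls in all. The differences between cell types numbered 9 in limma and 4 in edgeR. The Krt8 to Krt18 ratio of levels per kb in luminal cells, median over libraries, was 0.407, and from CPM with no length correction it was 0.555. Leaving out 1 sort in turn gave 1 to 3 calls in basal cells during lactation (1 without L10 replicate 6), 4 to 7 at Id2, 6 to 9 differences between cell types, 23 to 27 comparisons higher and 25 to 29 lower in basal cells, and 5 to 7 luminal and 10 to 14 basal step changes. *Krt15* from P3.5 to P14.5 in basal cells was lost with a pseudocount of 0.1 CPM and without any single P3.5 replicate. Over all results for single keratins, that pseudocount made 5 weaker and 1 stronger. The causes were not tested. With the sort as a replicate block, the comparisons higher in basal cells numbered 28 against 26, and apart from the block values given with the results and *Krt8* in basal cells from L10 to Id2, called with the block (adjusted p = 0.00938), no other call changed. Over the comparisons that use L3 or L10, the sort date as a block changed 2 calls, *Krt15* in basal lactation and *Krt17* at L10 (adjusted p = 0.00965). Groups of 2 libraries (basal P14.5 and L10) and levels near 3 reads limit the precision. That block and the libraries and batches left out together were chosen after seeing the data.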
